A study of Mus musculus with 86 samples.

Results

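The genes described here are 42 genes of fatty acid oxidation, followed in injured and sham-operated kidney, liver and lung of mice. They were chosen by name, with earlier results of these data known. Of them, 17 act in mitochondrial steps, 12 in peroxisomal steps, and 13 in activation of fatty acids, omega-oxidation or steps beside these pathways. All 42 were found among the 31054 gene identifiers of the count files and among the 38277 of the FPKM tables (fragments per kilobase of transcript, scaled to the library's total). The series holds 86 samples, 32 from a knockout experiment and 54 from an inhibitor experiment.

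Fatty acids enter oxidation as acyl-CoA esters. In mitochondria the carnitine shuttle carries long-chain esters across the inner membrane, and each turn of beta-oxidation removes an acetyl unit through a dehydrogenase, a hydratase, a second dehydrogenase and a thiolase, with electrons passed on by the electron transfer flavoprotein. Peroxisomes shorten very long, branched and dicarboxylic chains, and hand the products to mitochondria as carnitine esters. The kidney's proximal tubule and the liver's hepatocytes both rely on these pathways, and PPARalpha, a nuclear receptor that binds fatty acids, is known to drive many of the genes in both organs.

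In the knockout experiment, kidney and liver came from mice labelled wild type or Mertk knockout; Mertk encodes a receptor tyrosine kinase of phagocytes. Kidneys had undergone unilateral ureteral obstruction (UUO) or a sham operation, and livers bile duct ligation (BDL) or a sham operation, with 4 libraries per group. Kidney libraries sham wild type 1 and UUO wild type 1, which lack tubule transcripts, were left out. That left 3 libraries in each of those 2 groups. Mertk transcripts did not set the label apart in sham organs or in obstructed kidney and were lower with the label in ligated liver (9.36 to 26.2 against 29.3 to 38.7 CPM); in sham kidney they stood at 37.6 to 57.0 CPM in wild-type and 41.8 to 59.2 CPM in knockout-labelled mice, where CPM are counts scaled to a common library total; counts over the whole gene do not check the genotype, so these mice are called knockout-labelled. In the inhibitor experiment every mouse was wild type and received UNC569, an inhibitor of MERTK, or the solvent DMSO. The sham kidney, liver and lung groups held 3 libraries each with DMSO and 3 with UNC569. The injured groups held 4 DMSO and 7 UNC569 libraries for UUO kidney, 6 and 4 for BDL liver, and 6 and 6 for bleomycin-treated lung; the labels list 8 and 6 UNC569 samples for UUO kidney and BDL liver. The labels used here give no strain, age, dose or time after surgery, and do not say which cells the knockout affects. Library numbers in the inhibitor experiment follow the columns of the tables and only name a library. Samples are called bioreplicates in the labels, with no statement on separate animals, so the p-values measure the spread between these libraries.

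Positions of neighbouring genes were read from the GENCODE annotation for all 42 members. A receptor motif was searched in RefSeq promoter windows (GRCm38.p6), which were at hand for 36 of the 42. Hadha and Hadhb, which encode the alpha and beta subunits of the mitochondrial trifunctional protein, start back to back with 85 bases between them, at chr5:30155163-30155247 on the plus strand, and this stretch is shown because it holds the sequence before the starts of both subunit genes. Its GC content is 69.4%, and the 9 CpG dinucleotides are in capitals.
Hadha-Hadhb: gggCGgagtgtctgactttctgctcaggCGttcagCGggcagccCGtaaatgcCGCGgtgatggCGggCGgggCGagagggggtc
The motif of PPARalpha with its partner RXR was searched on both strands of the 250 bases before each start as a direct repeat of AGGTCA with 1 base of any kind between the copies. No member held an exact match, against 0.0407% of 27025 genes. With 1 mismatch allowed, 2 of 36 members (5.56%) matched, against 0.566% of all genes, and with 2 mismatches 5 of 36 (13.9%; Acot12, Fabp1, Acot4, Echs1 and Etfa), against 3.72%. The 2 members within 1 mismatch, Fabp1 and Acot12, are printed because they are the closest matches among the members. The motif is in capitals, as its reverse complement. They lie at chr6:71199752-71199826 and chr13:91741351-91741463, both on the plus strand, and the motif ends 2 bases before the GENCODE gene start of Fabp1 and 88 bases before that of Acot12.
Fabp1: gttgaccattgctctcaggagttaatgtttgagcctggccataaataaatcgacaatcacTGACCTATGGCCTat
Acot12: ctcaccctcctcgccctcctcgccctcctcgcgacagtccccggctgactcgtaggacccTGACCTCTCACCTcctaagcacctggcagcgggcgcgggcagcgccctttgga
A match of letters is a description and not a shown binding site. Other members also lie close together: Acsm2 and Acsm1 are 6.33 kb apart, Eci3 and Eci2 13.9 kb, and Cyp4a14 and Cyp4a10 22.1 kb.

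The kidney libraries used held 7216322 to 28451863 reads in genes and the liver libraries 14500094 to 23352846; the depth behind the FPKM values is unknown. Sham wild-type kidney library 3 had the fewest reads in genes of the kidney libraries used, 7216322, and 58.5% of its reads were unmapped, against 32% in UUO knockout-labelled library 4 and 3.92% to 8.78% in the other 12. Without it 36 members passed for obstruction in wild-type kidney and 40 in knockout-labelled kidney, and in wild type Acadm stood at log2 -3.12, Acsm3 at -6.09, Ehhadh at -4.32 and Acaa1b at -3.03. Sham wild-type kidney summed 17238 to 37069 CPM over 12 proximal tubule markers, and sham wild-type liver 129231 to 163804 CPM over 11 hepatocyte markers. The kidney libraries left out lacked tubule transcripts. The kidney sums thus cover only libraries that hold them, and are not a check of tissue content. Reads were counted without regard to strand, which leaves reads of overlapping genes ambiguous: Dvl2 overlaps 42.9% of the exonic bases of Acadvl, and Eri2 39.7% of those of Acsm3. Etfb shares 58.2% of its exonic bases with Gm45233 and was at 1.15 to 10.6 CPM in sham wild-type kidney by counts, against 150.3 to 232 FPKM in sham kidney with DMSO, so its count values are uncertain. Acaa1b shares 19.3% of its 100-base words with Acaa1a.

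Nearly all members were lower in obstructed than in sham kidney. In wild-type mice 34 of 42 members fell and 1 rose (edgeR's quasi-likelihood test with Benjamini-Hochberg adjusted p under 0.05), where 16% of all genes tested fell and 23.3% rose. The median log2 fold change over the members was -1.79, against 0.16 over all genes. In the independent inhibitor experiment, with DMSO, 38 of 42 members fell and 1 rose (limma on log2(FPKM + 1), the scale of every fold change given for FPKM; adjusted p under 0.05), against 25.8% and 29.7% of all genes, with a median of -1.97 against 0.08. All 34 members that fell in wild-type mice also fell with DMSO, where they made up 89.5% of the 38 falls. The other 4 were Acaa1a, Eci2, Etfb and Slc25a20, whose log2 fold changes in wild-type kidney were -0.37, -0.63, -1.51 and -0.31. A library holds RNA of all cells in the organ, so fewer cells of a type and less RNA per cell cannot be told apart.

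**Figure D1:**
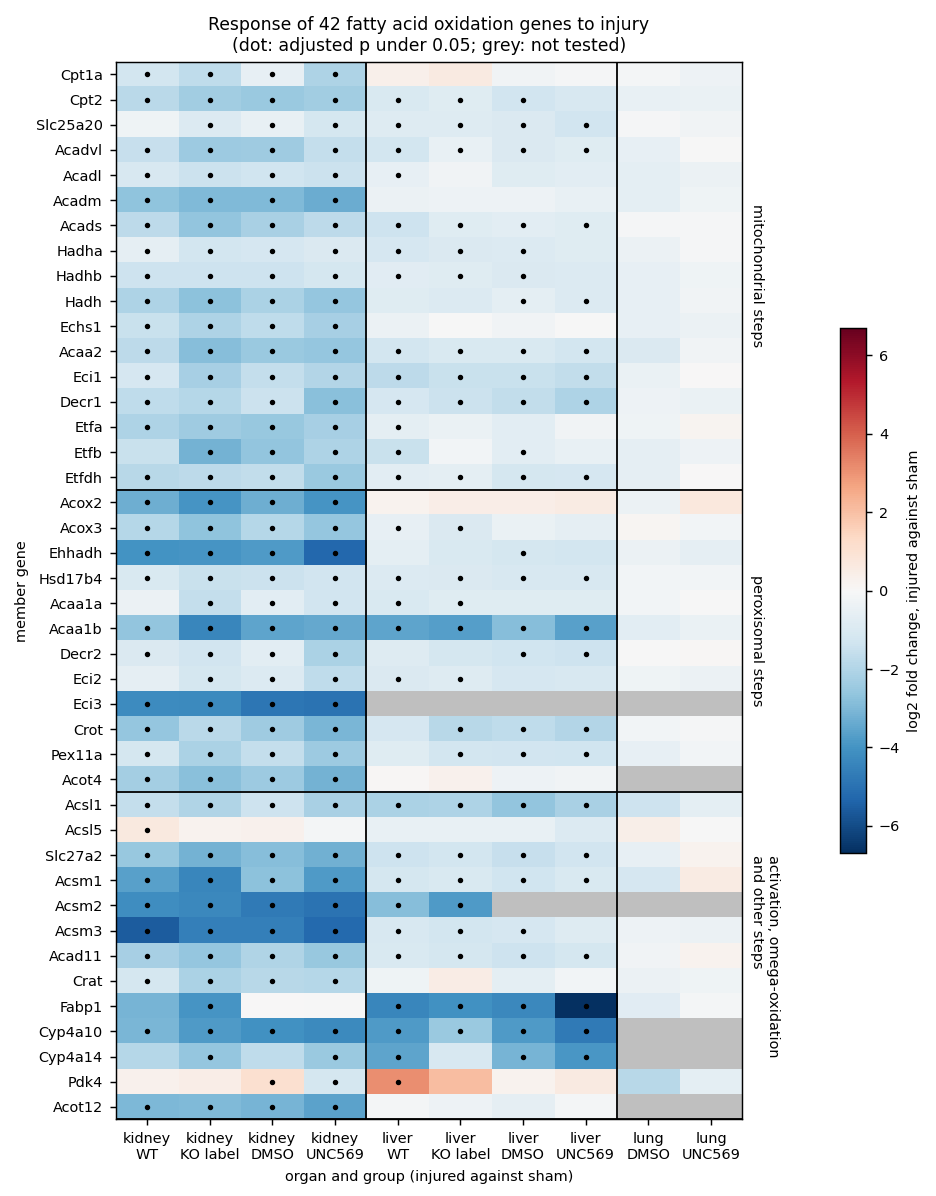
Log2 fold change of each member (rows, grouped by role) in 10 comparisons of injured with sham organs (columns), with blue lower and red higher after injury; dots mark adjusted p under 0.05 and grey cells were not tested. The kidney columns are blue from top to bottom apart from Acsl5, Pdk4 and Fabp1, the liver columns are mostly blue, and no lung cell carries a dot.

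Among the carriers of the carnitine shuttle, Cpt1a, the outer-membrane acyltransferase that sets the pace of entry, was at 448, 378 and 316 CPM in the sham wild-type libraries and 167, 156 and 145 CPM after obstruction. Every obstructed library lay below every sham library. The log2 fold change was -1.22 ± 0.19 (SE; edgeR adjusted p = 0.000248), a 2.33-fold fall. With DMSO Cpt1a also fell, from 79.4, 74.5 and 81.8 FPKM in sham to 63.9, 62.1, 42.5 and 48.3 FPKM, again without overlap (log2 -0.55 ± 0.18, limma adjusted p = 0.014). Cpt2, the inner-membrane partner, fell in both experiments, with log2 values of -1.81 ± 0.27 and -2.49 ± 0.26. Slc25a20, the translocase between them, gave -0.31 ± 0.24 in wild type, where its groups overlapped, and fell by 0.49 with DMSO. Cpt2 had the largest log2 fold change of the 3 in both experiments.

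The 4 acyl-CoA dehydrogenases take chains of different lengths, and Acadm, which acts on medium chains, had the largest fall of the 4 in wild-type kidney. It was at 786, 328 and 1001 CPM in sham wild-type kidney and 86.4, 154 and 75.7 CPM after obstruction. Sham library 3, the one with most unmapped reads, was the lowest sham value and still lay above the highest obstructed library. The log2 fold change was -2.68 ± 0.46 (edgeR adjusted p = 0.000455), or 6.4-fold. With DMSO Acadm went from 508, 517 and 522 FPKM to 101, 78.9, 43.1 and 56.5 FPKM, again with no overlap (log2 -2.94 ± 0.21, limma adjusted p = 6.8e-09). The very long-chain enzyme Acadvl, the long-chain Acadl and the short-chain Acads fell by 1.54, 1.09 and 1.77 in wild type.

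The remaining mitochondrial genes gave smaller values than Acadm. Hadha and Hadhb, the trifunctional pair printed above, gave -0.63 ± 0.17 and -1.38 ± 0.22 in wild type, and -1.13 ± 0.14 and -1.40 ± 0.13 with DMSO. Echs1, the short-chain hydratase, Hadh, the short-chain hydroxyacyl dehydrogenase, and Acaa2, the thiolase, fell by 1.5, 2.07 and 1.77 in wild type. Eci1 and Decr1, which prepare unsaturated chains, fell by 1.13 and 1.71. Etfa and Etfdh, which carry electrons to ubiquinone, fell by 2.06 and 1.88, while the uncertain counts of Etfb gave -1.51 ± 0.72 with overlapping groups. Over the 17 mitochondrial genes, 15 fell in wild type and all 17 with DMSO.

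Peroxisomal genes held the steepest falls of the 2 organelles. Ehhadh, the bifunctional hydratase and dehydrogenase of the classical peroxisomal route, was at 922, 483 and 831 CPM in sham wild-type kidney and 49.1, 57.6 and 28.4 CPM after obstruction, a 15.8-fold fall with no overlap (log2 -3.98 ± 0.52, edgeR adjusted p = 5.74e-05). With DMSO it was at 312, 265 and 306 FPKM in sham kidney and 35.7, 37.2, 10.1 and 12.7 FPKM after obstruction, where libraries 1 and 2 kept clearly higher levels than libraries 3 and 4. Hsd17b4, which catalyses the same pair of reactions on branched chains, fell by 1.04 in wild type and 1.44 with DMSO. Acox2, the oxidase for branched chains and bile acid precursors, was at 67.3, 26.8 and 128 CPM in sham and 5.95, 13.3 and 2.85 CPM in obstructed wild-type kidney (log2 -3.28 ± 0.79, edgeR adjusted p = 0.00492). Its groups did not overlap, and obstructed library 3 was the highest of the obstructed libraries, as it was for Acadm and Ehhadh.

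The thiolase gene Acaa1b was at 212, 122 and 350.1 CPM in sham wild-type kidney and 24.5, 67.4 and 13.8 CPM after obstruction. No obstructed library reached the sham range, and UUO wild type 3 was the highest of the 3. Acaa1b fell by 2.63 (SE 0.75, edgeR adjusted p = 0.0129); the adjusted p was 0.0566 without UUO wild type 2 and 0.0572 without UUO wild type 4. Its paralog Acaa1a went from 116, 90.4 and 193 to 90.9, 110.1 and 94.7 CPM, and did not pass (log2 -0.37 ± 0.26). Eci3, an isomerase gene next to Eci2, was at 131, 80.6 and 212 CPM in sham and 3.99, 15.4 and 2.28 CPM in obstructed wild-type kidney. The obstructed libraries were far below all sham libraries (log2 -4.23 ± 0.86, edgeR adjusted p = 0.00159). Its neighbour Eci2, found in both organelles, gave -0.63 ± 0.26 with overlapping groups. The difference between these neighbours was not tested. With DMSO Acaa1b fell by 3.56, Eci3 by 4.86, Eci2 by 0.93 and Acaa1a by 0.70.

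The other peroxisomal members lay between these. Crot, which makes carnitine esters of shortened chains, fell by 2.6, Acot4, a thioesterase, by 2.29, and Acox3, the pristanoyl-CoA oxidase, by 1.93 in wild type. Pex11a, which promotes peroxisome division, fell by 1.20, and Decr2, the peroxisomal dienoyl-CoA reductase, by 0.95. In all, 10 of 12 peroxisomal genes fell in wild type and 12 of 12 with DMSO.

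Of the activation and omega-oxidation genes, the medium-chain acyl-CoA synthetases fell furthest. Acsm3 was at 375, 114 and 411 CPM in sham wild-type kidney and 9.16, 4.13 and 4.59 CPM after obstruction, a 48.4-fold fall (log2 -5.60 ± 0.80, edgeR adjusted p = 0.00012). Acsm2, which led the members in sham kidney by FPKM, went from 3343, 3566 and 4173 to 224, 208 and 168 CPM (log2 -4.14 ± 0.66, edgeR adjusted p = 0.00028). Neither gene had overlapping groups. Slc27a2, a very long-chain acyl-CoA synthetase, fell by 2.56, Acsl1, the main long-chain synthetase, by 1.58, and Acot12, a cytosolic acetyl-CoA thioesterase, by 3.03. With DMSO Acsm2 went from 997, 1005 and 1169 to 66.2, 68.8, 16.1 and 27.8 FPKM and Acsm3 from 182, 178 and 165 to 12.3, 13.1, 1.94 and 4.38 FPKM, with log2 values of -4.76 and -4.57. Acsm1, a further medium-chain synthetase, fell by 3.65 in wild type, Acad11, a dehydrogenase of very long chains, by 2.24, and Crat, which makes carnitine esters of short chains, by 1.17.

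Cyp4a10, a PPARalpha target that starts omega-oxidation, was at 478, 216 and 323 CPM in sham wild-type kidney and 27.6, 83.6 and 5.4 CPM after obstruction. The obstructed libraries were all lower but differed strongly among themselves. Cyp4a10 fell by 3.05 (SE 0.97, edgeR adjusted p = 0.0226), and the adjusted p was 0.0819 without UUO wild type 2, 0.0665 without UUO wild type 4 and 0.0573 without sham wild type 2. With DMSO, Cyp4a10 stood at 119, 115 and 121 FPKM in sham and 17.6, 20.2, 0.899 and 2.59 FPKM in obstructed kidney (log2 -4.05 ± 0.68, limma adjusted p = 7.19e-05), with the same low libraries 3 and 4 as for Ehhadh. With the libraries whose labels note a bad sequence file left out, Cyp4a10 (0.0885), Acaa1b (0.101) and Acsm2 (0.0583) no longer passed by edgeR (adjusted p in brackets). Cyp4a14, its neighbour, did not pass in wild type (log2 -1.93 ± 0.96, adjusted p = 0.125) or with DMSO (log2 -1.69 ± 0.79, limma adjusted p = 0.0805). Fabp1, the liver fatty acid binding protein, was near its detection limit in sham wild-type kidney, at 1.03, 0.23 and 1.37 CPM, and gave no call in wild type. It was listed at 0 in all DMSO libraries, so no call was possible there. The filter on low values kept it in that test only through UNC569 libraries.

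Pdk4 and Acsl5 were the members with positive values. Pdk4, the kinase that turns off pyruvate oxidation when fat is burnt, was at 48.2, 43.3 and 28.5 CPM in sham and 61.1, 34.6 and 42.3 CPM in obstructed wild-type kidney, with overlapping groups (log2 0.27 ± 0.39, edgeR adjusted p = 0.613). With DMSO it rose, from 5.27, 5.5 and 4.31 to 16.1, 15.8, 9.37 and 7.3 FPKM (log2 1.06 ± 0.30, limma adjusted p = 0.00632). Acsl5, another long-chain synthetase, was at 33.5, 34.2 and 50.2 CPM in sham and 58.6, 63.5 and 54.3 CPM in obstructed wild-type kidney. Its groups did not overlap, and it rose by log2 0.64 ± 0.19 (edgeR adjusted p = 0.0151). That call was lost without sham wild type 2 (edgeR adjusted p = 0.113) or 3 (0.111) and with no filter on low counts (0.0931). The sign turned to log2 -1.36 (edgeR adjusted p = 0.115) with the 2 left-out libraries kept, which lack tubule transcripts.

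Many other genes of the pathway fell as well. Of other acyl-CoA and carnitine genes, 9 of 14 tested fell and 1 rose in wild type, and of other peroxisomal lipid genes 10 of 16 fell. Among these were Phyh, the hydroxylase in the breakdown of phytanic acid (log2 -2.67 ± 0.34), and Scp2, the peroxisomal thiolase and lipid carrier (-2.27 ± 0.25). Peroxisome biogenesis genes gave smaller values, with 9 of 15 passing and a median of -0.73. Oxct1, which lets a tissue use ketone bodies, fell by 3.30. Of the regulators, 8 of 12 fell, including Ppara (log2 -2.46 ± 0.62) and the coactivator gene Ppargc1a (-1.92 ± 0.36). Beside these, all 12 proximal tubule markers fell, with sums of 17238 to 37069 CPM in sham and 1272 to 2092 CPM in obstructed wild-type kidney and a median of -3.72; all 12 respiratory chain genes fell too (median -1.63). All 10 macrophage markers rose (median 4.05). The part of these cell changes in the members' falls was not tested.

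In knockout-labelled kidney 40 of 42 members fell and 0 rose, against 24.4% and 34.7% of all genes, with a median of -2.41. Acsl5 and Pdk4 were the members that did not pass. Cpt1a was at 419.7, 437, 512 and 396 CPM in sham and 160.1, 124, 120.0 and 109.7 CPM in obstructed knockout-labelled kidney, Acadm at 609, 546, 650.0 and 1110.0 and 125, 63, 61.1 and 103 CPM. Ehhadh was at 639, 615, 792 and 984 and 97, 30.3, 23 and 34 CPM, and Acaa1b at 284, 395, 406 and 380.3 and 46.5, 7.79, 6.98 and 6.77 CPM. None of these 4 genes had overlapping groups, and UUO library 1 was the highest obstructed library for each of them. Their log2 fold changes were -1.68 ± 0.17, -2.95 ± 0.40, -3.95 ± 0.45 and -4.35 ± 0.70, with edgeR adjusted p of 2.89e-06, 3.17e-05, 6.82e-06 and 0.000129. Cyp4a10 went from 153, 170.4, 311 and 421 to 51.9, 7.65, 3.34 and 9.99 CPM (log2 -3.78 ± 0.87, edgeR adjusted p = 0.00195). The steepest falls were again those of Acsm3, from 249.7, 188, 154 and 491 to 21.3, 6.86, 2.31 and 11.3 CPM, and Acsm1, from 168, 199, 165 and 187 to 21, 5.34, 3.61 and 2.94 CPM, with log2 values of -4.61 and -4.37. Pdk4 gave 0.47 ± 0.34, from 10.9, 27.7, 41.9 and 38.9 to 29.7, 49.4, 38.1 and 37.3 CPM, with overlapping groups.

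The genotype label itself separated no member at the threshold. Between obstructed knockout-labelled and wild-type kidneys 0 of 42 members passed by edgeR (0% of all genes), 5 had an unadjusted p under 0.05, near the 11.6% of all genes, and DESeq2 called 0 members (0.0427% of all genes); the smallest p belonged to Eci1 (-0.80 ± 0.29, adjusted p = 0.43), Acaa2 (-0.77) and Acadvl (-0.47). Between the sham kidneys 0 members passed, against 0.0061% of all genes, with 2 at an unadjusted p under 0.05 (15.7% of all genes) and 0 by DESeq2 (1.92%). Acaa1a came nearest, at 116, 90.4 and 193 CPM in wild-type sham kidney and 199, 248, 245 and 179 CPM in the knockout-labelled one, where the groups overlapped through wild-type library 4 (log2 0.69 ± 0.24, edgeR adjusted p = 0.233). The difference between the 2 obstruction responses passed for 0 members by edgeR (0% of all genes), with 7 at an unadjusted p under 0.05 and 2 by DESeq2 (Acaa1a and Acadvl); of all genes 27.2% and 10.1% did so, larger shares than among the members. Acaa1a gave -1.21 ± 0.34 (adjusted p = 0.0946), Acadvl -0.89 ± 0.27 (adjusted p = 0.0952) and Acaa2 -1.11 ± 0.41 (adjusted p = 0.119). Sham wild type 4 weighed on these values: without it 4 members passed between the sham kidneys, where 23.6% of all genes did, and 10 in the difference of responses, where 30.2% did, with Acaa1a at log2 1.16 (adjusted p = 0.00405) and -1.68 (adjusted p = 0.00132).

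**Figure D2:**
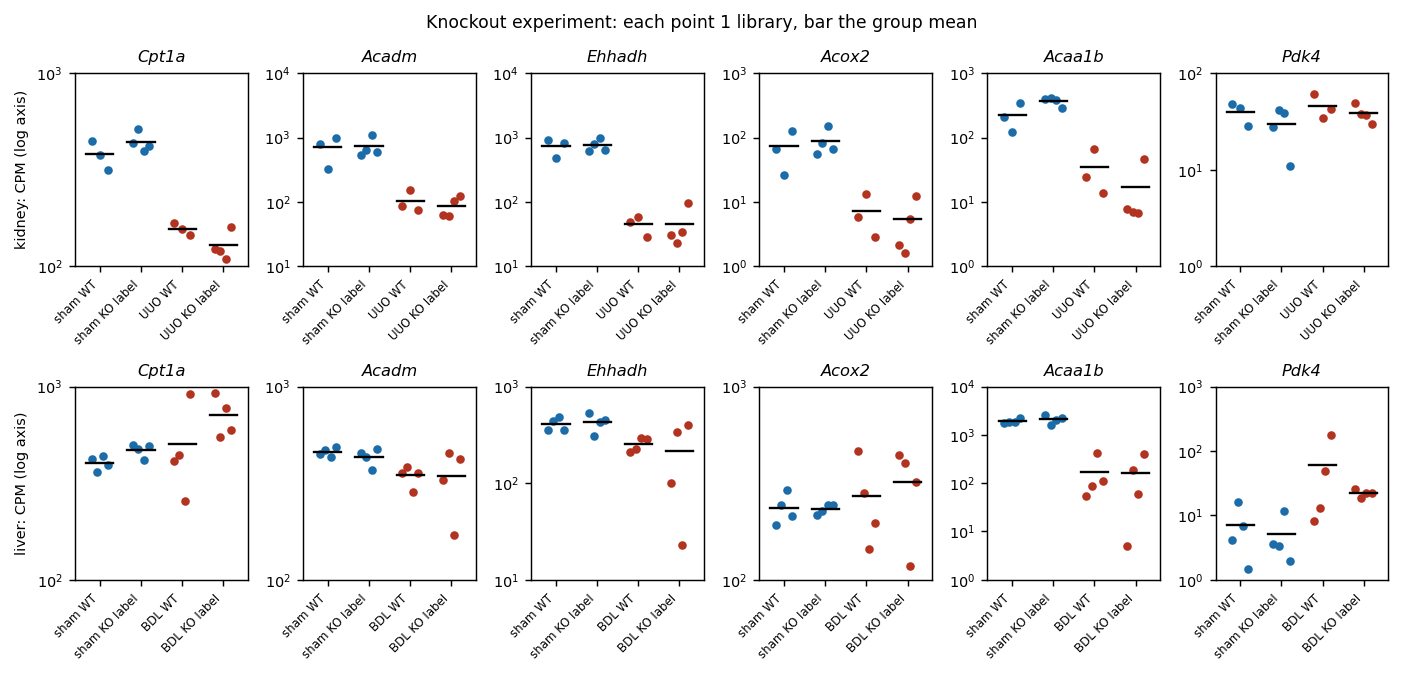
Level in CPM (log axis) of 6 members in each library of the knockout experiment, kidney above and liver below, with sham groups in blue, injured groups in red and the group mean as a bar. In kidney the obstructed libraries lie below the sham libraries for all but Pdk4; in liver Acaa1b lies clear below sham, while Cpt1a and Acox2 do not.

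UNC569 was compared with DMSO in sham kidney, in obstructed kidney and in the response to obstruction. In sham kidney 7 of 42 members rose and 0 fell (limma, adjusted p under 0.05), where 13.3% of all genes rose and 6.05% fell. Read against that background, 7 of 42 is little above it. The 7 were Cpt1a and Decr1 of the mitochondrial steps, Acaa1a, Crot and Decr2 of the peroxisomal steps, and Acsl1 and Pdk4. Cpt1a was at 79.4, 74.5 and 81.8 FPKM with DMSO and 179.8, 173 and 196 FPKM with UNC569, where every treated library stood above every control (log2 1.21 ± 0.19, limma adjusted p = 0.000698). Pdk4 was at 5.27, 5.5 and 4.31 FPKM with DMSO and 12.2, 17.1 and 15.9 FPKM with UNC569 (log2 1.41 ± 0.32, limma adjusted p = 0.00701). Decr2 was at 27.6, 27.4 and 29.6 and 68.2, 56.6 and 54 FPKM (log2 1.05 ± 0.20, adjusted p = 0.00266). None of these 3 genes had overlapping groups. Acsl1 went from 50.7, 46.6 and 47.2 to 76.8, 74.5 and 76.5 FPKM and Crot from 106, 108 and 91.3 to 178, 197 and 172 FPKM, with log2 values of 0.65 and 0.84, also without overlap.

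The median log2 fold change in sham kidney was 0.09 over the mitochondrial genes, 0.55 over the peroxisomal genes and 0.46 over the others, against 0.07 over all genes. The median level, on the log2(FPKM + 1) scale, was 6.33, 6.51 and 6.80 over the mitochondrial genes with DMSO and 7.21, 7.14 and 7.05 with UNC569, and 6.06 to 6.08 and 6.54 to 6.63 over the peroxisomal genes. By level both sets were thus higher in every UNC569 library, so the contrast between the sets appears in the median fold change and not in the median level. The scaling between libraries bears on these values: with median-of-ratios scaling of the FPKM columns the median of all genes shifted by -0.13, and the split of all calls went from 2033 higher and 928 lower to 1194 higher and 1657 lower. Under it 5 members rose and 0 fell, Cpt1a, Pdk4, Decr2, Acsl1 and Crot, with Cpt1a at log2 1.02, while Decr1 and Acaa1a no longer passed and the medians went to -0.09 for the mitochondrial, 0.36 for the peroxisomal and 0.28 for the other members; 7.8% of all genes rose under this scaling. Of the regulators, Ppara (1.71 ± 0.34) and Ppargc1a (1.06 ± 0.20) rose and Ppard (-1.52 ± 0.20) fell. Of 12 proximal tubule markers 2 rose (median 0.17), none of 12 respiratory chain genes passed, 4 of 9 macrophage markers fell (median -0.74), and 3 of 6 white adipocyte markers rose (median 1.45; sums of 105 to 214 FPKM with DMSO and 170.2 to 256 FPKM with UNC569). The part of these markers in the members' rises was not tested.

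After obstruction the members fell with UNC569 as well, 40 of 42 with 0 higher, against 34.5% and 27.5% of all genes, with a median of -2.38. Cpt1a had between 32.1 and 54 (median 41.4) FPKM in the 7 obstructed libraries, all below the sham libraries with UNC569 (log2 -2.08 ± 0.16, limma adjusted p = 5.91e-09). Acadm went from 784, 838 and 751 FPKM to between 65.4 and 89.6 (median 72.6) (log2 -3.35), and Acaa1b from 405, 227 and 289.7 FPKM to between 15.9 and 54.8 (median 24.4) (log2 -3.45). Ehhadh showed the steepest fall of all members here, from 399, 579 and 559.9 FPKM to between 7.19 and 29.4 (median 12) (log2 -5.25 ± 0.38, limma adjusted p = 3.48e-09). Cyp4a10 went from 149, 127 and 135 FPKM to between 1.93 and 16.1 (median 7.52) (log2 -4.26). Acsm3 and Eci3 followed with log2 values of -5.23 and -4.97, and no obstructed library of these 6 genes reached the sham range. Pdk4, which rose with DMSO, fell with UNC569, to between 3.42 and 8.96 (median 7.1) FPKM (log2 -1.19 ± 0.27, limma adjusted p = 0.00104).

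Obstructed kidneys with UNC569 and with DMSO did not differ at the threshold for any member: 0 of 42 passed by limma, against 1.3% of all genes, and 6 had an unadjusted p under 0.05, as did 18.4% of all genes. The smallest p belonged to Eci2 (-0.37 ± 0.11, adjusted p = 0.0847), Pdk4 (-0.85 ± 0.25, adjusted p = 0.0873) and Etfdh (-0.45 ± 0.16, adjusted p = 0.161). The response to obstruction itself differed for 8 members, all more negative with UNC569, against 13.4% of all genes more negative and 6.17% more positive. They were Cpt1a (-1.53 ± 0.24, limma adjusted p = 0.000808), Pdk4 (-2.26 ± 0.41, adjusted p = 0.00188), Decr2 (-1.37 ± 0.26, adjusted p = 0.00219), Acsl1 (-0.78), Decr1 (-1.33), Etfdh (-0.84), Eci2 (-0.76) and Pex11a (-0.83). This difference uses the same sham libraries as the comparison above, in which Cpt1a, Pdk4, Decr2, Acsl1 and Decr1 were higher with UNC569. Read against 19.6% of all genes called in either direction, 8 of 42 members is near the background. With median-of-ratios scaling 6 members were more negative and 1, Acadvl, more positive, and all genes split into 1615 more positive and 1324 more negative in place of 947 and 2053. Without UUO DMSO library 3, 13 members passed, against 18% of all genes.

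**Figure D3:**
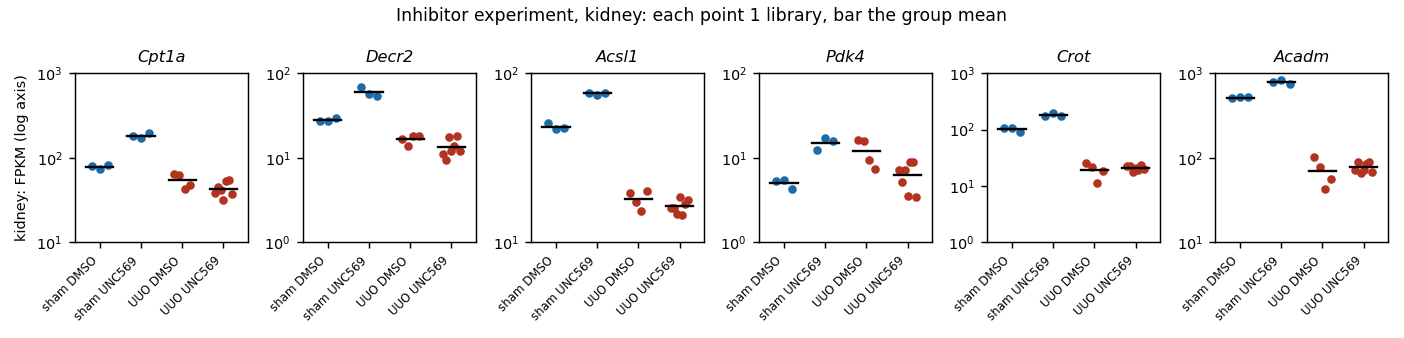
FPKM (log axis) of 6 members in each kidney library of the inhibitor experiment, with sham groups in blue, obstructed groups in red and the group mean as a bar. Sham libraries with UNC569 stand above sham libraries with DMSO for all 6 genes, and the 2 obstructed groups overlap for each of them.

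After bile duct ligation many members fell, while Cpt1a, Acadm, Echs1, Acot12, Acsl5, Crat, Acot4 and Acox2 passed in neither experiment. In wild-type liver 27 of 41 members tested fell and 1 rose (edgeR), where 12.8% of all genes fell and 16.3% rose; Eci3 was too low to test. The median log2 fold change was -0.96, against 0.03 over all genes. With DMSO 26 of 40 members fell and 0 rose (limma), against 7.92% and 5.47% of all genes, with a median of -1.0; Eci3 and Acsm2 were too low to test. The 2 experiments shared 21 falls, 77.8% of those in wild type and 80.8% of those with DMSO. The count with DMSO depended on single libraries, both sham and ligated. It was 7 without sham DMSO library 3 (5.65% of all genes called) and 14 without sham DMSO library 2 (6.31%). It was 15 without BDL DMSO library 5 (9.79%) or 6 (9.86%), and 16 without BDL DMSO library 2 (9.94%). With no filter on low values it was 17 (7.4%). With median-of-ratios scaling it was 21 (13.2%), where Acads, Etfb, Hadh, Ehhadh and Cyp4a14 no longer passed. Under that scaling all genes split into 929 higher and 789 lower, in place of 710 and 1028. Sham DMSO library 3 was the highest of the 3 sham libraries for many members, such as Cyp4a14 at 149, 116 and 1345 FPKM.

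The mitochondrial entry step did not pass in liver. Cpt1a was at 422, 363, 439 and 394 CPM in sham wild-type liver and 412, 441, 255 and 917 CPM after ligation, with overlapping groups and library 4 the highest (log2 0.34 ± 0.30, edgeR adjusted p = 0.405; -0.13 without BDL wild type 4). With DMSO it was at 85, 93.4 and 129 FPKM in sham, and had between 43.6 and 124 (median 95.4) FPKM after ligation, again overlapping (log2 -0.24 ± 0.28, limma adjusted p = 0.616). Cpt2 and Slc25a20, the next steps of the shuttle, fell in both experiments, by 1.04 and 0.86 in wild type. Acadm, the member that fell most among the dehydrogenases in kidney, did not pass in liver. It was at 445, 468, 429.8 and 486 CPM in sham and 359, 384, 286 and 357 CPM after ligation, where the groups did not overlap but lay close (log2 -0.39 ± 0.23, edgeR adjusted p = 0.21). With DMSO Acadm was at 108, 152 and 222 FPKM in sham, with between 88 and 142 (median 130.5) FPKM after ligation with overlap (log2 -0.33 ± 0.22, limma adjusted p = 0.351).

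Acads fell by 1.39 and Acadvl by 1.23 in wild-type liver, and both also fell with DMSO. The largest mitochondrial fall was that of Eci1, the isomerase for unsaturated chains, from 174, 188, 165 and 210.4 to 63.1, 52, 54.5 and 49.3 CPM (log2 -1.74 ± 0.23, edgeR adjusted p = 0.000143). No ligated library of Eci1 came near the sham range. Decr1, Acaa2, Hadha, Hadhb and Etfdh fell in both experiments, by 1.11, 1.22, 1.14, 0.75 and 0.69 in wild type, while Echs1 gave -0.37 ± 0.23 and did not pass. Hadh passed with DMSO (-0.67 ± 0.21) and not in wild type (-0.79 ± 0.39), and Acadl and Etfa in wild type (-0.55 ± 0.17 and -0.66 ± 0.20) and not with DMSO (-0.79 ± 0.33 and -0.69 ± 0.25). In all 13 of 17 mitochondrial genes fell in wild type and 12 with DMSO. With median-of-ratios scaling 9 fell with DMSO, and Acads, Hadh and Etfb no longer passed.

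Among peroxisomal genes Acaa1b stood apart in liver. It was at 1799, 1882, 1838 and 2280.3 CPM in sham wild type and 53.8, 87, 425 and 109 CPM after ligation, an 11.4-fold fall (log2 -3.51 ± 0.88, edgeR adjusted p = 0.00817). Ligated library 3 kept the most Acaa1b and still lay far below every sham library. With DMSO Acaa1b was at 404, 591 and 834 FPKM in sham and had between 35.3 and 212 (median 85.2) FPKM after ligation, without overlap (log2 -2.83 ± 0.55, limma adjusted p = 0.0033). Its paralog Acaa1a fell by 1.03 in wild type and gave -0.83 ± 0.36 with DMSO, which did not pass. Hsd17b4 fell in both experiments, by 0.93 and 1.06. Ehhadh was at 354, 437, 485 and 355 CPM in sham wild-type liver and 210.1, 224, 292 and 285 CPM after ligation, and did not pass although its groups did not overlap (log2 -0.68 ± 0.53, edgeR adjusted p = 0.355). With DMSO it was at 221, 240.1 and 561 FPKM in sham and had between 81.5 and 231 (median 139) FPKM after ligation, with overlap (log2 -1.18 ± 0.37, limma adjusted p = 0.046), and it lost that call when any of 9 libraries was left out, with adjusted p from 0.0563 to 0.285, with median-of-ratios scaling (0.0534) and with no filter on low values (0.0803). Acox2, which fell steeply in kidney, was at 191, 245, 292 and 213 CPM in sham and 465, 282, 145 and 197 CPM in ligated wild-type liver, with overlapping groups (log2 0.22 ± 0.35). Eci2 and Acox3 fell in wild type, by 0.96 and 0.55, and did not pass with DMSO, while Crot, Decr2 and Pex11a fell with DMSO, by 1.72, 1.35 and 1.29, and did not pass in wild type. Acot4 was the peroxisomal gene nearest to no change in wild type (log2 0.10 ± 0.37).

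The largest fall of all in liver was that of Fabp1, which carries fatty acids in the hepatocyte cytosol. It was at 4047, 3376, 3845 and 5294 CPM in sham wild-type liver and 8.47, 41.5, 580.1 and 158 CPM after ligation. All ligated libraries were lower, with library 3 the highest and library 1 the lowest of them. Fabp1 fell by 4.37 (SE 1.34, edgeR adjusted p = 0.0229), with adjusted p = 0.0586 without BDL wild type 2 and 0.058 without BDL wild type 4. With DMSO Fabp1 was at 655, 1053 and 1959 FPKM in sham and had between 7.71 and 233 (median 60.3) FPKM after ligation, without overlap (log2 -4.33 ± 1.10, limma adjusted p = 0.0163; 0.0587 without sham DMSO library 2 and 0.0878 without library 3). Cyp4a10 was at 388, 649, 400.2 and 389 CPM in sham and 24.9, 20, 26.7 and 57.2 CPM in ligated wild-type liver (log2 -3.81 ± 0.52, edgeR adjusted p = 0.000159). Its tandem neighbour Cyp4a14 was at 626, 961, 285 and 506 and 30.6, 47, 32.7 and 95.5 CPM (log2 -3.51 ± 0.72, edgeR adjusted p = 0.00242), and neither gene had overlapping groups. With DMSO Cyp4a10 was at 101, 83.6 and 471 FPKM in sham and had between 1.54 and 44.2 (median 13.3) FPKM after ligation (log2 -3.81 ± 0.84, limma adjusted p = 0.0074; 0.0652 without sham DMSO library 3). Acsl1 fell by 2.10 and 2.64 in the 2 experiments and Slc27a2 by 1.41 and 1.57. Acsm1, Acsm3 and Acad11 fell in both as well, by 1.19, 1.09 and 1.02 in wild type.

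Pdk4 was the member that rose in ligated wild-type liver. It was at 4.13, 15.9, 6.94 and 1.46 CPM in sham and 8.04, 13.2, 48.5 and 175 CPM after ligation, where libraries 1 and 2 lay inside the sham range and libraries 3 and 4 above it. The log2 fold change was 3.12 ± 0.87 (edgeR adjusted p = 0.014), and 1.72 (adjusted p = 0.0951) without BDL wild type 4, 2.74 (adjusted p = 0.0637) with the replicate number as a block and 2.61 (adjusted p = 0.116) without the libraries noted for a bad sequence file. With DMSO it gave 0.23 ± 0.48 (limma adjusted p = 0.794), from 4.77, 2.04 and 7.14 FPKM in sham, with between 2.26 and 15 (median 3.97) FPKM after ligation.

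Outside the members, Nudt7, a peroxisomal CoA diphosphatase, fell by 3.44 in wild type and 3.74 with DMSO, within a list of other peroxisomal lipid genes of which 8 of 16 tested fell and 1 rose in wild type and 11 fell with DMSO. Of other acyl-CoA and carnitine genes 3 of 14 fell and 1 rose in wild type, and of biogenesis genes 7 of 15 fell. Ppara fell by 1.3 in wild type and 1.27 with DMSO. Of 11 hepatocyte markers, 2 fell in wild type (median -0.32) and 1 with DMSO (median -0.06), with sums of 129231 to 163804 CPM in sham and 63382 to 127787 CPM in ligated wild-type liver, which did not overlap. All 7 bile duct markers rose in wild type (median 3.64; sums of 53.2 to 107 and 1162 to 3113 CPM), as did all 10 macrophage markers (median 2.24). The part of these cells in the members' falls was not tested.

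In knockout-labelled liver 25 of 41 members fell and 0 rose, against 11.2% and 14% of all genes, with a median of -0.93; the count was 16 without sham knockout-labelled library 1. Acaa1b was at 2618, 1635, 2019 and 2281 CPM in sham and 4.99, 190.1, 59.5 and 401 CPM after ligation (log2 -3.72 ± 0.89, edgeR adjusted p = 0.00841), and Cyp4a10 at 624, 189, 332 and 520.1 and 69.3, 20.9, 86 and 125 CPM (log2 -2.47 ± 0.49, adjusted p = 0.00301). Neither overlapped. Fabp1 was at 4199, 5044, 4378 and 4118 and 9.72, 51.6, 16.2 and 994 CPM, with ligated library 4 far above the other ligated libraries (log2 -4.06 ± 1.32, edgeR adjusted p = 0.0346); it lost the call in 7 of the omissions, with adjusted p from 0.0577 to 0.0704: without ligated library 1, 2 or 3 or any of the 4 sham libraries. It gave -3.09 (adjusted p = 0.173) without the libraries noted for a bad sequence file. Acsm2 was low throughout, at 3.28, 2.8, 3.37 and 2.85 CPM in sham and 0.0875, 0.429, 0 and 0.319 CPM after ligation, and passed (log2 -3.77 ± 0.58). Cpt1a was at 496, 474, 416 and 491 CPM in sham and 929, 545, 777 and 593 CPM after ligation: every ligated library was higher, yet it did not pass (log2 0.59 ± 0.30, edgeR adjusted p = 0.149). Pdk4 likewise lay higher in every ligated library, at 3.64, 3.31, 11.8 and 1.98 and 25.4, 18.8, 22.3 and 22.3 CPM, without passing (log2 2.09 ± 0.85, edgeR adjusted p = 0.0812). Both Cpt1a and Pdk4 passed without BDL wild type 4 (edgeR adjusted p of 0.0485 and 0.0389). That library is in neither group compared, and enters through the shared filter, scaling and estimate of spread. Pdk4 also passed without sham knockout-labelled library 3 (edgeR adjusted p = 0.048). Acadm gave -0.35 ± 0.23 and Ehhadh -1.02 ± 0.54, with ligated library 3 the lowest at 171 and 22.9 CPM; Ehhadh passed without ligated library 4 (adjusted p = 0.0481).

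The genotype label again separated no member by edgeR. In ligated liver 0 of 41 passed, against 4.39% of all genes, with 6 at an unadjusted p under 0.05 and 3 by DESeq2; of all genes 26.7% and 14.1% did so, larger shares than among the members. Those 3 were Acadvl, at 118, 81.6, 91.4 and 149.7 CPM in wild-type liver and 203, 155, 153 and 181 CPM in knockout-labelled liver, Acads, at 136, 103, 89.6 and 91.7 and 156, 203, 110.2 and 163 CPM, and Cyp4a14, at 30.6, 47, 32.7 and 95.5 and 302, 40.6, 174 and 357 CPM. For Acadvl every knockout-labelled library was higher, while Acads and Cyp4a14 overlapped. Their log2 values were 0.63 ± 0.18, 0.57 ± 0.18 and 2.06 ± 0.68, with adjusted p of 0.0555, 0.0677 and 0.0774 by edgeR and 0.00932, 0.015 and 0.0153 by DESeq2. By edgeR Acadvl passed without BDL knockout-labelled library 2 (adjusted p = 0.034) or BDL wild type 1 (0.0447), Acads without BDL wild type 1 (0.0211), and Cyp4a14 without BDL knockout-labelled library 2 (0.0237). Bile duct markers summed 1162 to 3113 CPM in ligated wild-type and 75 to 595 CPM in ligated knockout-labelled liver, with 1 of the 7 lower by edgeR and a median of -1.58, and the part of these cells was not tested. Between sham livers 0 of 41 members passed (0% of all genes; 0 at an unadjusted p under 0.05, against 0.519%, and 0 by DESeq2), and the difference of the ligation responses also gave 0 (0% of all genes; 4 at an unadjusted p under 0.05, against 14.5%, and 0 by DESeq2, against 1.08%), with Cyp4a14 at 2.45 ± 0.94 and Etfb at 1.33 ± 0.46.

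With UNC569, 20 of 40 members fell after ligation and 0 rose, against 4.9% and 3.66% of all genes, with a median of -0.96. The count was 8 without sham UNC569 library 3, 11 without sham UNC569 library 1, and 11, 10 and 12 without BDL UNC569 libraries 1, 2 and 4; of all genes 3.65%, 3.82%, 4.81%, 4.8% and 5.31% were called in these fits. Fabp1 showed its largest fall here, from 1263, 731 and 1827 to 6.72, 3.38, 158 and 2.37 FPKM, with ligated library 3 the highest (log2 -6.68 ± 1.19, limma adjusted p = 0.00236). Acaa1b went from 669, 275 and 731 to 36.3, 24.6, 127 and 23.5 FPKM (log2 -3.63 ± 0.59, adjusted p = 0.00135), and Cyp4a10 from 154, 41.7 and 229 to 2.63, 2.7, 4.02 and 3.77 FPKM (log2 -4.76 ± 0.91, adjusted p = 0.00387). None of these 3 genes overlapped. Cyp4a14 went from 253, 154 and 497 to 12.8, 15, 13.7 and 31.6 FPKM (log2 -3.90 ± 1.09, limma adjusted p = 0.0335), with adjusted p from 0.0505 to 0.147 when any of the 4 ligated libraries or sham UNC569 library 1 or 3 was left out, and 0.0738 with no filter on low values. Cpt1a, at 91.1, 82.9 and 151 and 92.4, 95.3, 122 and 95.5 FPKM, and Pdk4, at 2.82, 2.59 and 5.03 and 5.56, 7.15, 2.96 and 7.83 FPKM, overlapped and did not pass (log2 -0.05 and 0.59). Acadm gave -0.49 ± 0.24 and Ehhadh -1.22 ± 0.40 (adjusted p of 0.245 and 0.0717; Ehhadh 0.0493 without sham DMSO library 3). Between UNC569 and DMSO 0 of 40 members passed by limma in ligated liver (0.316% of all genes; 2 at an unadjusted p under 0.05, against 11.2%), in sham liver (0%; 0 against 1.86%) and in the difference of the responses (0%; 0 against 4.7%). In ligated liver the smallest p belonged to Etfa (0.54 ± 0.23) and Fabp1 (-2.25 ± 1.00), with adjusted p of 0.394 and 0.412.

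The sham organs start from different levels. By counts in wild-type mice 23 of 42 members were higher in sham liver than in sham kidney and 5 lower (edgeR). Of all genes, 21.8% were higher and 28.8% lower. With the left-out kidney libraries sham wild type 1 and UUO wild type 1 kept, this went to 9 and 5, against 12.9% and 24.3% of all genes. Both lack tubule transcripts, so these values do not describe the tubule-containing sham kidneys alone. Among mitochondrial genes Acaa2 differed most, at 179, 217 and 207 CPM in kidney and 1433, 1301, 1292 and 1638 CPM in liver, a 7.12-fold difference with no overlap (log2 2.83 ± 0.32, adjusted p = 3.35e-08). Cpt1a had overlapping values in the organs, at 448, 378 and 316 CPM in kidney and 422, 363, 439 and 394 CPM in liver (log2 0.10 ± 0.27). Acaa1b was 8.48-fold higher in liver (log2 3.08 ± 0.93), Decr2 5.2-fold and Eci2 3.96-fold, while Acox3 was lower in liver (log2 -1.98 ± 0.26). Eci3 was measured at 131, 80.6 and 212 CPM in sham kidney and at most 0.176 CPM in sham wild-type liver, which had 0 counts in 3 libraries. Fabp1 showed the reverse, with at most 1.37 CPM in kidney and 4047, 3376, 3845 and 5294 CPM in liver. Acsm2 was at 2.31, 4.23, 3.66 and 2.75 CPM in liver against 3343 to 4173 CPM in kidney (log2 -10.14 ± 0.66), Acsl5 was 8.98-fold higher in liver, and Pdk4 lower (log2 -2.47 ± 0.73, adjusted p = 0.00615). Acadm did not pass (log2 -0.64 ± 0.35, adjusted p = 0.13; -1.0 and 0.0182 without kidney sham wild type 3). With sham wild type 1 and UUO wild type 1 kept, Fabp1 (2.85, edgeR adjusted p = 0.2, from 12.09 without them), Acaa1b (1.75, adjusted p = 0.113) and Acsl5 (1.34, 0.073) no longer passed. Without the libraries noted for a bad sequence file Acaa1b (edgeR adjusted p = 0.0561) and Pdk4 (0.147) did not pass.

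Per transcript length, the leading members differed between organs as well; the 3 FPKM tables were normalised separately, so their values are only set side by side. In sham kidney with DMSO Acsm2 led at 1057 ± 96.8 FPKM (mean ± SD), then Slc27a2 at 947 ± 97.3 and Acadm at 516 ± 7.05; Acsm2 and Slc27a2 did not differ beyond their spread. In sham liver Fabp1 led at 1222 ± 668 FPKM, then Acaa1b at 609.7 ± 216, with overlapping values. In sham lung Acaa1a led at 104 ± 27.9 FPKM, then Hadh at 74.1 ± 13.9, within their spread. The median of the members' mean levels was 91.95 FPKM for mitochondrial and 71.15 FPKM for peroxisomal genes in sham kidney, 79.96 and 104.0 FPKM in sham liver, and 26.33 and 11.75 FPKM in sham lung. In the lung table Acot4, Acot12, Acsm2, Eci3, Cyp4a10 and Cyp4a14 were too low there to test.

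The response to ligation in liver and to obstruction in kidney was compared directly between the wild-type groups. The fit held all 30 kidney and liver libraries used in the knockout experiment, wild type and knockout-labelled. The response differed for 14 of 42 members, all with a more positive response in liver. Of all genes, 13.2% had a more positive response in liver and 8.41% a more negative one. Of the mitochondrial genes these were Cpt1a (1.67 ± 0.39, edgeR adjusted p = 0.0031), Acadm (2.42 ± 0.50, adjusted p = 0.00118), Etfa, Etfdh and Echs1. Of the peroxisomal genes they were Acox2 (3.63 ± 0.85), Ehhadh (3.43 ± 0.79), Acot4 (2.51) and Acox3 (1.5). The rest were Acot12 (3.00 ± 0.48, adjusted p = 8.86e-05), Acsm3 (4.64 ± 0.80, adjusted p = 0.000184), Acsm1, Acad11 and Pdk4. Acot12 went from 203, 101 and 158 to 16.8, 24.8 and 12.3 CPM in kidney, and from 152, 124, 139.9 and 149.9 to 110.4, 143, 76.9 and 172 CPM in liver, where the groups overlapped. No member gave a called difference in the other direction; Acsl5 was at -1.02 ± 0.56 (adjusted p = 0.199). Acaa1b (-0.78 ± 1.17) and Cyp4a10 (-0.65 ± 1.03), which fell in both organs, gave no called difference. Beside this, Oxct1 differed by 5.90 ± 0.55 and Ppargc1a by 4.00 ± 0.76, both more positive in liver, and Nudt7 by -2.79 ± 0.48. Organ and model go together in this design, so the organ and the kind of injury cannot be told apart.

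Mitochondrial and peroxisomal steps were set beside each other as a description. In kidney the median log2 fold change was -1.54 for mitochondrial and -2.11 for peroxisomal genes in wild type, -2.25 and -2.42 in knockout-labelled mice, -1.71 and -2.16 with DMSO, and -2.09 and -2.82 with UNC569. The peroxisomal median was the more negative in all 4 comparisons, 2 of them in each experiment. In liver the 2 medians lay closer, at -0.86 and -0.88 in wild type, -0.83 and -0.97 in knockout-labelled mice, -0.94 and -1.10 with DMSO, and -0.80 and -1.08 with UNC569. The mitochondrial genes ranged from -2.68 to -0.31 in wild-type kidney, and the peroxisomal genes from -4.23 to -0.37. In wild-type liver the ranges were -1.74 to 0.34 and -3.51 to 0.22, with Acaa1b at the lower end. The median log2(CPM + 1) of the mitochondrial genes was 7.37 to 7.67 over the sham wild-type kidney libraries and 5.59 to 6.22 after obstruction, and 8.0 to 8.29 and 7.27 to 7.70 in liver; for the peroxisomal genes it was 6.43 to 7.67, 4.71 to 5.92, 8.02 to 8.32 and 6.91 to 7.35. In each of these 4 wild-type pairs no injured library reached the sham range. With DMSO in liver the peroxisomal medians overlapped, on the log2(FPKM + 1) scale. Ligated libraries 1 and 3 were at 6.163 and 6.108, against 6.069 in sham library 1. The mitochondrial medians there did not overlap, with 6.05 the lowest in sham and 5.971 the highest after ligation. Counting Acad11 and Crat, found in both organelles, as peroxisomal gave a median of -2.09 in wild-type kidney, and leaving out Eci2 gave -2.29.

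**Figure D4:**
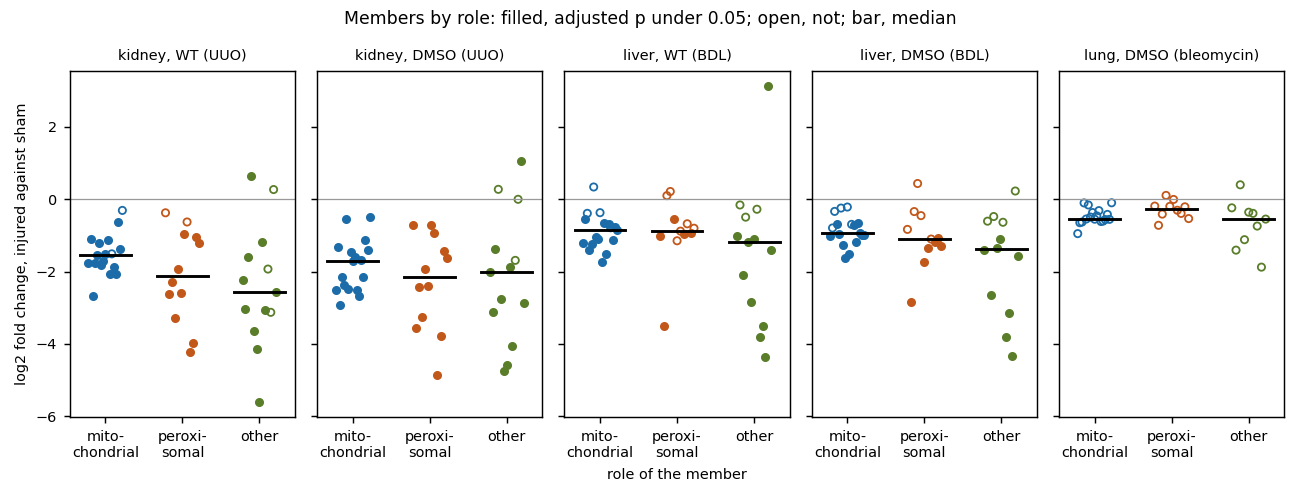
Log2 fold change of every tested member after injury (vertical axis), by role, in 5 comparisons; filled points have an adjusted p under 0.05, open points do not, and bars are medians. Peroxisomal and other genes spread further down than mitochondrial genes in kidney, Acaa1b is the lowest peroxisomal point in both liver panels, and all lung points are open.

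In lung no member passed. With DMSO 0 of 36 members tested differed between bleomycin and sham by limma, against 0.069% of all genes, and 14 had an unadjusted p under 0.05, where 19.6% of all genes did. The median log2 fold change was -0.44, against -0.02 over all genes; all 17 mitochondrial genes had a negative value (median -0.55), and the peroxisomal median was -0.26. Sham libraries were far from alike. Pdk4 was at 36.4, 35 and 3.27 FPKM in the sham DMSO libraries and had between 2.83 and 5.01 (median 3.97) FPKM after bleomycin, so sham library 3 fell inside the bleomycin range and the other two stood far above it (log2 -1.88 ± 0.76, limma adjusted p = 0.193). Acadm was at 71.2, 61.6 and 35.7 FPKM in sham and had between 28.5 and 45.8 (median 33.4) FPKM after bleomycin, where sham library 3 was again inside the bleomycin range (log2 -0.63 ± 0.24, adjusted p = 0.173). Without sham DMSO library 3, 13 members passed, against 12% of all genes, among them Pdk4 (-2.91, adjusted p = 0.0204) and Acadm (-0.92, adjusted p = 0.0256), and 1 member passed without bleomycin DMSO library 1 (1.52% of all genes). Cpt1a (38.5, 35.5 and 48.8 FPKM in sham; 31.2 to 51.1 FPKM after bleomycin), Ehhadh (6.69, 7.5 and 4.88; 3.82 to 5.96 FPKM) and Acaa1b (7.54, 4.29 and 3.81; 1.25 to 4.66 FPKM) overlapped, with log2 values of -0.16, -0.39 and -0.72.

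Heart muscle transcripts moved with these values, although 0 of the 10 markers passed with DMSO by limma (median -2.95). Over 10 cardiac muscle markers the sham DMSO libraries summed 79 to 3131 FPKM, the sham UNC569 libraries 118 to 3237 FPKM, and the bleomycin libraries 45.3 to 603 FPKM with DMSO and 46.7 to 1376 FPKM with UNC569. The 3 sham libraries highest in these markers, DMSO 1 and 2 and UNC569 2, were the 3 highest for Pdk4 and for the mitochondrial median, and white adipocyte markers, at 78.4 to 860.3 FPKM in sham DMSO, were uneven as well. Heart muscle is known to depend on fatty acid oxidation and to express Pdk4. With the mean log2 level of the cardiac markers as a covariate, the mitochondrial median went to -0.17 and the peroxisomal median to -0.13, Pdk4 to log2 -0.37 (limma adjusted p = 0.795) and Acadm to -0.19, and 0 members passed. The covariate itself went with the groups, as the cardiac markers had a median of -2.95 after bleomycin with DMSO. It therefore cannot separate heart muscle from injury, and the part of heart muscle in the lung values was not tested.

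**Figure D5:**
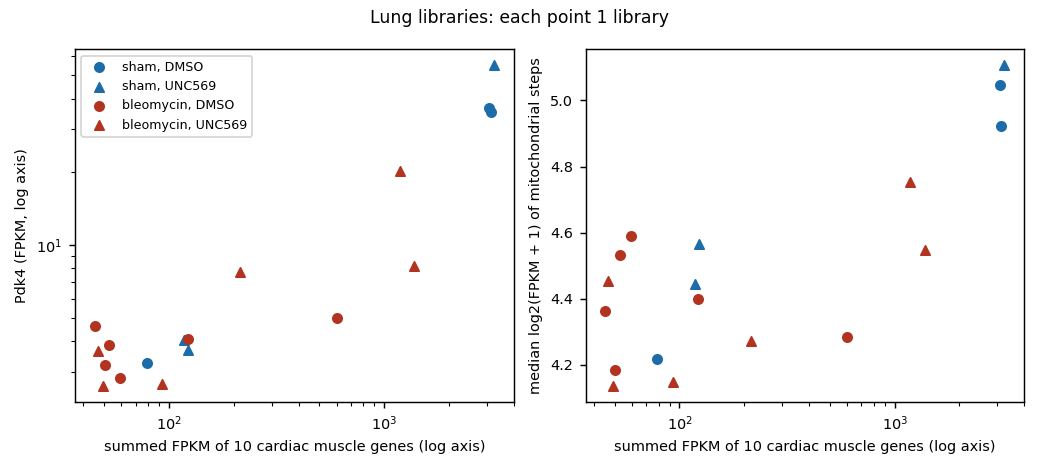
Pdk4 (left, FPKM) and the median log2(FPKM + 1) of the mitochondrial members (right) in each lung library, against the summed FPKM of 10 cardiac muscle markers (log axis); circles DMSO, triangles UNC569, blue sham and red bleomycin. The 3 sham libraries with the highest cardiac sums also hold the 3 highest values on both vertical axes, and the other sham libraries lie among the bleomycin libraries.

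With UNC569, 0 of 36 members passed between bleomycin and sham (0.0251% of all genes; 3 at an unadjusted p under 0.05, against 10.6%), with a median of -0.19. Pdk4 was at 4.06, 54.8 and 3.7 FPKM in sham and had between 2.63 and 20.1 (median 5.68) FPKM after bleomycin (log2 -0.68 ± 0.76); without sham UNC569 library 2 it turned to 0.49, and Acadm from -0.26 to 0.10. Cpt1a gave -0.33 ± 0.16, Ehhadh -0.58 ± 0.22 and Acaa1b -0.44 ± 0.38, all with overlapping groups. Between UNC569 and DMSO 0 members passed in bleomycin-treated lung (0% of all genes; 2 at an unadjusted p under 0.05, against 5.29%), in sham lung (0%; 0 against 7.57%) and in the difference of the responses (0%; 2 against 11.9%). In bleomycin-treated lung Acadvl (0.52 ± 0.24) and Acsm1 (0.73 ± 0.34), in sham lung Acsm1 (-0.92 ± 0.47) and Acaa2 (-0.52 ± 0.28), and for the difference Acsm1 (1.66 ± 0.58, limma adjusted p = 0.364) were among the smallest p. Without sham DMSO library 3, 1 member passed in that difference, against 4.35% of all genes.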

How the data were processed

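Libraries of the knockout experiment were deposited as read counts per gene, which the authors obtained with STAR after FastQC and Trim Galore, per the submitters' processing notes; mm10 and hg38 are the builds listed there, without versions of the tools. The unstranded column was used as deposited. The inhibitor experiment was deposited by the authors as FPKM values per gene in a table for each organ; the tool behind them is not given in the sources used here. Libraries were TruSeq preparations, per the labels.

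Counts were tested with edgeR 4.0.16 (quasi-likelihood, TMM, filterByExpr, all groups of an organ in a single fit) and DESeq2 1.42.0 as an alternative, in R 4.3.3. Comparisons between kidney and liver used a single fit of all groups of both organs. FPKM were tested with limma 3.58.1 (trend) on log2(FPKM + 1), for genes at 1 FPKM or more in at least 3 libraries. P-values were Benjamini-Hochberg adjusted over all genes tested, and a gene passed under 0.05. The scripts were tested on simulated data: with counts drawn for the wild-type kidney comparison of obstruction, 15.6% of 2-fold and 63% of 4-fold changes were recovered among 15072 genes. Levels in CPM were scaled by TMM. After each gene's group mean was subtracted, same-numbered libraries of different groups correlated from -0.306 to 0.169 in kidney and -0.29 to 0.265 in liver. The numbers were therefore not used as pairs.

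Values in every library are given for Cpt1a, Acadm, Ehhadh, Acaa1b, Pdk4 and Cyp4a10 and, in each injury comparison, for the members with the largest called changes, up to 3 in each direction, whose groups did not overlap; in the other comparisons up to 5 members of the smallest p are named, or 3 where none passed. Other members are named by role. Eci1, Acaa2, Acox2 and Acaa1a were given by library after their values were seen. The members and lists were chosen with earlier results of these data known.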

Additional observations from a re-analysis of the deposited data

Results flagged for a closer look

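Among 24 groups of libraries and roles tested for a library apart, 1 was found: in lung treated with bleomycin and UNC569, library 6 had a median log2(FPKM + 1) of 3.887 over the peroxisomal members, above the other 5 libraries at 3.29 to 3.506. Chance alone gives about 1 such library in 20 groups. That library also had the second highest summed level of the 10 cardiac muscle markers in its group.

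The response to injury differed between organs for 14 of 42 members, where 13.2% of all genes gave a more positive and 8.41% a more negative response in liver, all with a more positive response to ligation in liver than to obstruction in kidney; Acsm3, Acot12, Acadm and Ehhadh were among them. It differed by injection in kidney for 8 of 42 members, all with a more negative response to obstruction under UNC569; this is near the 19.6% of all genes called, and with median-of-ratios scaling 6 members were more negative and 1, Acadvl, more positive.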

How the results depend on the processing

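Of 117 counts of passing members recomputed under other settings, 113 stayed within 1.5 times the main count. DESeq2 called 2 members in the difference of the obstruction response by genotype label and 3 between the ligated livers by label, where it called 10.1% and 14.1% of all genes. With kidney libraries sham wild type 1 and UUO wild type 1, which lack tubule transcripts, kept, 14 members passed between sham liver and sham kidney. With no filter on low values, 17 passed after ligation with DMSO. The cause of these shifts was not tested. Acsl5 in obstructed wild-type kidney reversed to log2 -1.36 with those 2 libraries kept, and among the other named members and settings 587 of 612 values kept direction and call, 15 lost a call and 5 gained it.

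With each library left out in turn, the number of passing members ranged from 31 to 38 for UUO in wild-type kidney, 38 to 40 in knockout-labelled kidney, 38 to 40 with DMSO and 40 to 40 with UNC569. It ranged from 22 to 31 for BDL in wild-type liver, 16 to 28 in knockout-labelled liver, 7 to 26 with DMSO and 8 to 21 with UNC569. By genotype label it ranged from 0 to 4 in sham kidney, 0 to 10 in the difference of UUO responses and 0 to 3 in ligated liver. It was 23 to 31 between the sham organs, 12 to 18 for their responses, 5 to 10 for UNC569 in sham kidney, 6 to 13 for the UUO response by UNC569, 0 to 13 for bleomycin with DMSO and 0 to 1 for the bleomycin response by UNC569. It stayed at 0 in the remaining 10 comparisons.

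With the replicate number as a block (replicate block), 35 members passed for UUO in wild-type kidney, 40 in knockout-labelled kidney, 27 and 24 for BDL in wild-type and knockout-labelled liver, 29 between the sham organs and 13 for the difference of their responses. Pdk4 in ligated wild-type liver lost its call under it (log2 2.74, edgeR adjusted p = 0.0637), and no other named member did. With group means subtracted, 2 of 14 libraries in kidney and 4 of 16 in liver correlated best, on average, with libraries of their own number in other groups.

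Low levels limit what can be said of Fabp1 in kidney and of Eci3 and Acsm2 in liver, and the small number of sham libraries, 3 or 4 a group, limits every test.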
